A study of Mus musculus with 10 samples.

Results

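A set of 10 genes that build or cut the perineuronal net was read out of the 43629 genes of the count table by their symbols in the GRCm38 annotation, and all 10 passed the filter on low counts. The set comprised the proteases *Adamts1*, *Adamts5* and *Adamts4*, the lecticans *Bcan*, *Ncan*, *Vcan* and *Acan*, the link proteins *Hapln1* and *Hapln4*, and tenascin-R (*Tnr*), all annotated as protein coding. The extracellular matrix of the hippocampus holds these nets, lattices that wrap the cell body and proximal dendrites of certain neurons, above all parvalbumin interneurons and pyramidal cells of CA2. The nets are built on hyaluronan, to which proteoglycans of the lectican family (aggrecan, brevican, neurocan and versican) are held by link proteins and cross-linked by tenascin-R. Secreted metalloproteases of the ADAMTS family cut the lectican core proteins and so loosen this matrix.

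RNA sequencing had been performed on the whole hippocampus of 5 wild-type (WT) and 5 Dp1Tyb mice, labelled as 18 weeks old and of strain C57BL/6J.129P2, and described in the study's methods as male littermates, slightly older than the labels state, backcrossed to C57BL/6JNimr. Each mouse gave 1 library. Dp1Tyb mice, whose genotype is labelled Dp(16Lipi-Zbtb21)1TybEmcf, serve as a model of Down syndrome and carry a duplication on chromosome 16 from *Lipi* to *Zbtb21*, so that each gene in the segment is present in 3 copies instead of 2. *Adamts1* and *Adamts5* lie inside the duplication and the other 8 genes lie on other chromosomes in 2 copies. No drug or other treatment is given in the labels. Since RNA came from whole hippocampus, a change in the number of cells of a type and a change in RNA per cell cannot be told apart.

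Total counts ranged from 18227684 to 43692270 per library, and levels are given in CPM, the counts of a gene per 1000000 counts of its library. All 5 markers of CA2 neurons had counts in every library. Markers of the choroid plexus, a tissue that adjoins the hippocampus, varied widely between libraries. The summed level of these 8 genes ran from 425 to 5389 CPM in WT and from 41.1 to 3846 CPM in Dp1Tyb, and *Ttr*, its most abundant marker, was lowest in WT replicate 2 and in Dp1Tyb replicates 1 and 4, at 362, 12.9 and 15.8 CPM. The fits were therefore repeated without those 3 libraries and with the choroid plexus level as a covariate.

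Among the 10 genes, 2 passed the test for a difference between the genotypes, and both were higher in Dp1Tyb: *Adamts1*, which is duplicated, and *Hapln1*, which is not. Over the genome 191 of 17237 tested genes, or 1.11%, were called (edgeR quasi-likelihood test, adjusted p under 0.05, either direction). Of the 114 tested genes in the duplicated region 59.6% were called higher, and outside it 0.718% were called in either direction. For *Adamts1* and *Hapln1* the values of all 5 Dp1Tyb mice lay above those of all 5 WT mice, a separation in either direction that 3.68% of all tested genes showed. Without adjustment, 14.4% of all tested genes and the same 2 of the 10 had a p under 0.05. The median of the 10 log2 fold changes was 0.03, and over every tested gene it was −0.0041. DESeq2, which called 3.2% of the genes it tested, also called 2 of the 10, as did limma-voom and each of the 10 fits that left out a single library.

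**Figure D1:**
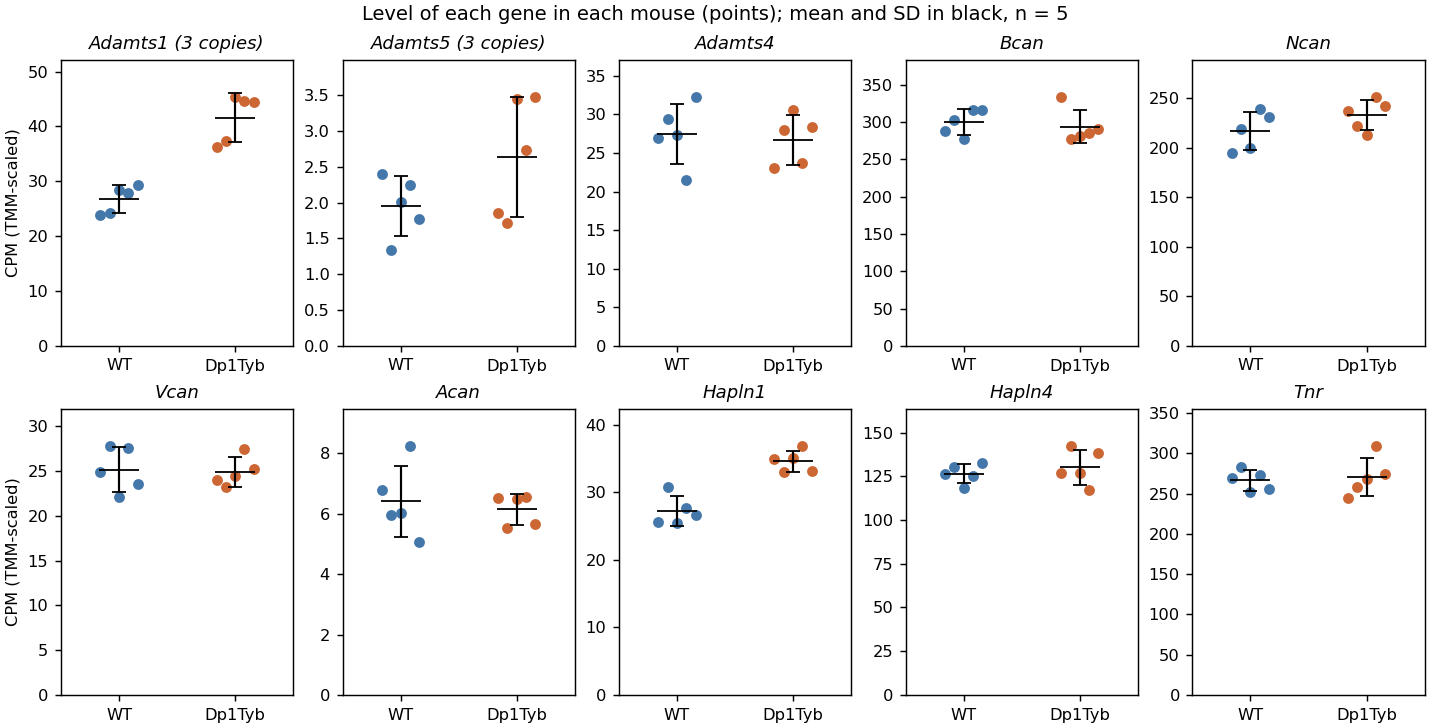
Level of each of the 10 genes in each mouse, in CPM scaled by TMM factors and starting at 0, with WT in blue and Dp1Tyb in orange; the black bar and whiskers give the mean and SD of 5 mice. Only for *Adamts1* and *Hapln1* do all 5 Dp1Tyb points lie above all 5 WT points.

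*Adamts1* encodes a secreted metalloprotease with thrombospondin repeats that cuts aggrecan and versican (ENSMUSG00000022893, protein coding, GRCm38 chromosome 16, positions 85793827 to 85803113, minus strand). Its level in the WT mice, replicates 1 to 5, was 23.9, 24.2, 28.5, 27.8 and 29.4 CPM. In the Dp1Tyb mice it was 36.2, 37.3, 45.3, 44.7 and 44.5 CPM. The genotypes did not overlap, and Dp1Tyb replicates 1 and 2 were the lowest of their group. The mean was 26.8 ± 2.51 CPM without the duplication and 41.6 ± 4.46 CPM with it (SD, 5 mice each), a rise of 0.64 ± 0.082 SE on the log2 scale (edgeR, adjusted p = 0.000886). On the linear scale this was 1.55-fold, with a 95% interval of 1.38 to 1.76 that included the copy number ratio of 1.5. Among the 114 tested genes of the duplicated region *Adamts1* ranked 29 by log2 fold change, where the median gene had 1.45-fold and 59.6% of genes were called higher. The log2 difference was 0.70 with the choroid plexus level as a covariate and 0.62 without the 3 libraries lowest in *Ttr* (edgeR, adjusted p = 0.00012 and 0.0029, and at most 0.00377 in any alternative).

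The bases just before the *Adamts1* transcription start are shown because this start lies inside the duplication, so that the promoter is present in 3 copies with the gene. The sequence is the 250 bases before the RefSeq start, chr16:85803114-85803363 on the minus strand of GRCm38.p6, written 5′ to 3′. No annotated exon covers any of these bases. Capitals mark a TATAAA match, the TATA box, and GGGCGG matches, the GC box.
Adamts1: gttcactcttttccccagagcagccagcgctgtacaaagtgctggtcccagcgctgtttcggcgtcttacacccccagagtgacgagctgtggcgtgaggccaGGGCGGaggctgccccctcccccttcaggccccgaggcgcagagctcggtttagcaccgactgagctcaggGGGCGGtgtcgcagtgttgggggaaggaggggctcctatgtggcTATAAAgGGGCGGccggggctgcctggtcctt
The TATAAA match begins 32 bases before the start, and 3 GGGCGG matches begin 147, 76 and 25 bases before it. On either strand, 12.4% of the 32851 promoter windows of this length held TATAAA and 32.7% held GGGCGG. The window held no CCAAT, which 33.8% of windows held. It held no AP-1 motif, TGANTCA, found in 6.75% of windows. It held no E-box of the letters CACGTG, found in 6.02%. The marked matches do not overlap each other.

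*Adamts5* encodes the other duplicated member, a protease known as a major aggrecanase of cartilage (ENSMUSG00000022894, protein coding, chromosome 16, positions 85856173 to 85901828, minus strand). It lies 53.1 kb from *Adamts1* on the same strand and was the least abundant member, with 32 to 90 counts per library. The WT mice had 2.39, 1.33, 2.01, 2.24 and 1.77 CPM, and the Dp1Tyb mice 1.86, 1.71, 3.44, 2.73 and 3.47 CPM. Dp1Tyb replicates 3, 4 and 5 lay above every WT mouse, whereas replicates 1 and 2 lay within the WT range. WT mice averaged 1.95 ± 0.418 CPM and Dp1Tyb mice 2.64 ± 0.837 CPM (SD, n = 5). The log2 difference of 0.41 ± 0.23 SE did not pass the test (edgeR, adjusted p = 0.434; from 0.299 to 0.616 over the alternatives), and it was 0.59 with the choroid plexus covariate. The linear ratio of 1.32 had a 95% interval of 0.945 to 1.86, which held both no change and the copy number ratio. No change and a 1.5-fold rise were therefore not told apart. The spread between mice, as a coefficient of variation, was 21.5% in WT and 31.7% in Dp1Tyb for *Adamts5*, against 9.39% and 10.7% for *Adamts1*.

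On either side of the pair the nearest tested genes were *Gm2541* and *N6amt1*. *N6amt1*, a methyltransferase gene in the duplicated region (positions 87354185 to 87368742), went up from 23.1 ± 0.998 to 35.1 ± 1.58 CPM (SD, n = 5; 0.60 ± 0.050 SE on the log2 scale, edgeR adjusted p = 1.31e-05). *Gm2541*, also in the duplicated region (positions 85553233 to 85553943), was at 0.916 ± 0.204 CPM in WT and 1.03 ± 0.318 CPM in Dp1Tyb. It did not pass the test (log2 fold change 0.12 ± 0.24 SE, edgeR adjusted p = 0.855).

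*Adamts4* encodes another lectican-cutting protease, present in 2 copies (ENSMUSG00000006403, protein coding, chromosome 1, positions 171250421 to 171260637, plus strand). Its level was 26.9, 29.4, 27.4, 21.6 and 32.2 CPM in the WT mice and 23.0, 28.0, 30.6, 23.7 and 28.4 CPM in the Dp1Tyb mice. Every Dp1Tyb value fell within the WT range. The log2 fold change was −0.04 ± 0.10 SE (edgeR, adjusted p = 0.887), and it turned positive with the choroid plexus covariate, at 0.03, without the 3 libraries lowest in *Ttr*, at 0.10, without WT replicate 5, at 0.02, and without Dp1Tyb replicate 1, at 0.01.

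Because *Adamts1* and *Adamts4* share the class of substrate but differ in copy number, the proteases were compared within each library. The log2 ratio of *Adamts1* to *Adamts4* CPM averaged −0.03 ± 0.25 over the WT mice and 0.64 ± 0.18 over the Dp1Tyb mice (SD, n = 5), and the lowest Dp1Tyb mouse, at 0.41, lay above the highest WT mouse, at 0.37. The genotypes differed in this ratio by 0.67 (two-sided exact permutation p = 0.00794, and p = 0.0238 adjusted over 3 pairs). The unadjusted value is the lowest that 5 against 5 can give. With mice paired by replicate number the adjusted p was 0.188 (exact sign-flip permutation test), where the smallest unadjusted p is 0.0625. For *Adamts5* to *Adamts4* the genotypes overlapped and their means were 0.43 apart (exact permutation, raw p = 0.159 and adjusted p = 0.238). For *Adamts1* to *Adamts5* they also overlapped, with means 0.24 apart (exact permutation, raw and adjusted p = 0.294), and a difference between the genotype effects on these 2 genes was not detected.

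**Figure D2:**
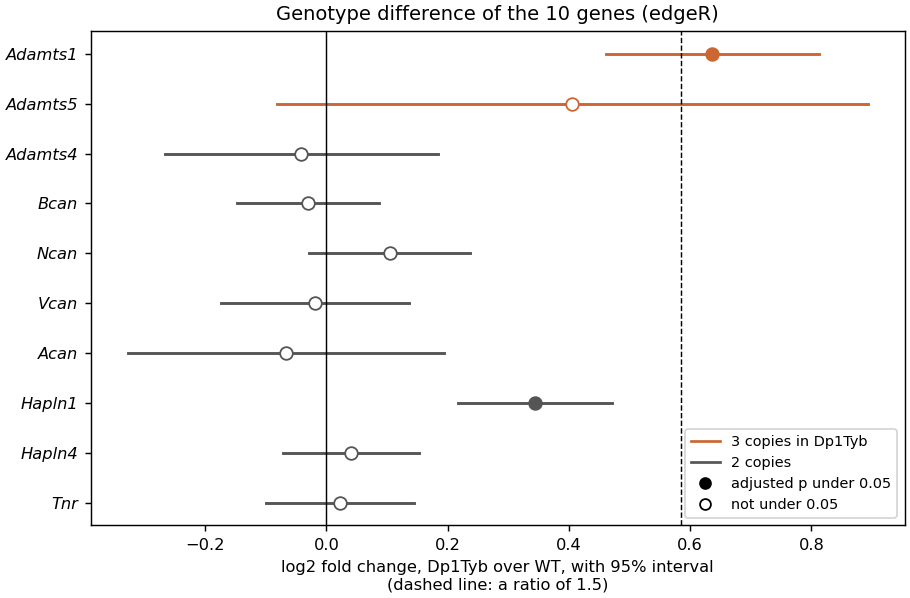
Log2 fold change of each gene in Dp1Tyb over WT with its 95% interval from edgeR (n = 5 per genotype); orange marks genes with 3 copies in Dp1Tyb, and filled points have an adjusted p under 0.05. *Adamts1* and *Hapln1* are the filled points, the interval of *Adamts5* reaches across both 0 and the dashed line at a ratio of 1.5, and the other 7 intervals all include 0 and end below the dashed line.

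*Hapln1* encodes the cartilage link protein, which clamps lecticans onto hyaluronan (ENSMUSG00000021613, protein coding, chromosome 13, positions 89539796 to 89611652, plus strand). It is not duplicated. The WT mice had 25.5, 30.8, 25.5, 27.6 and 26.6 CPM, and the Dp1Tyb mice 34.9, 33.0, 35.0, 36.8 and 33.1 CPM. The lowest Dp1Tyb mouse lay above the highest WT mouse, replicate 2. The mean rose from 27.2 ± 2.20 to 34.6 ± 1.57 CPM (SD, n = 5), which is 0.34 ± 0.059 SE on the log2 scale, or 1.27-fold with a 95% interval of 1.16 to 1.39 (edgeR, adjusted p = 0.0109). Outside the duplicated region 0.718% of tested genes were called in either direction. The call was kept in all 18 alternatives, with adjusted p-values up to 0.0373. Without the 3 libraries lowest in *Ttr* the log2 fold change was 0.35, and with the choroid plexus covariate it was 0.30 (edgeR, adjusted p = 0.0173 and 0.0267).

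*Vcan*, the versican gene, is the genomic neighbour of *Hapln1*, 43.7 kb away on the opposite strand (ENSMUSG00000021614, protein coding, chromosome 13, positions 89655312 to 89742509). The other lectican genes also lie near a link protein gene: *Ncan* lies 2.22 kb from *Hapln4*, *Bcan* 21.5 kb from *Hapln2*, and *Acan* beside *Hapln3*. *Vcan* was at 24.9, 27.7, 22.1, 27.6 and 23.5 CPM in the WT mice and at 24.0, 23.2, 24.5, 27.5 and 25.2 CPM in the Dp1Tyb mice. The Dp1Tyb values fell within the WT range, and the log2 fold change was −0.02 ± 0.072 SE (edgeR, adjusted p = 0.929), with its sign changed without WT replicate 2, WT replicate 4 or Dp1Tyb replicate 2, at 0.01, 0.02 and 0.01. The other neighbouring link protein genes did not pass the test either. The log2 fold change was −0.15 ± 0.11 SE for *Hapln2* and −0.13 ± 0.26 SE for *Hapln3* (edgeR, adjusted p = 0.567 and 0.858).

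Brevican and neurocan were the lecticans with the most counts. Brevican (*Bcan*, ENSMUSG00000004892, chromosome 3, positions 87987531 to 88000230), made largely by glia, was at 288, 303, 278, 316 and 315 CPM in WT and at 333, 278, 281, 285 and 291 CPM in Dp1Tyb. Neurocan (*Ncan*, ENSMUSG00000002341, chromosome 8, positions 70093085 to 70120873) was at 194, 219, 199, 238 and 231 CPM in WT and at 237, 222, 212, 251 and 242 CPM in Dp1Tyb. For both genes the genotypes overlapped, although the single highest brevican value and the 2 highest neurocan values were from Dp1Tyb mice. The log2 fold changes were −0.03 ± 0.054 SE and 0.10 ± 0.062 SE (edgeR, adjusted p = 0.829 and 0.466). Their 95% intervals on the linear scale, 0.903 to 1.06 for *Bcan* and 0.980 to 1.18 for *Ncan*, both included no change.

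Aggrecan (*Acan*, ENSMUSG00000030607, chromosome 7, positions 79053483 to 79115099) is the lectican most closely tied to perineuronal nets, and it was the least abundant lectican. It was at 6.78, 5.95, 6.02, 8.23 and 5.08 CPM in WT and at 6.51, 5.53, 6.48, 6.57 and 5.66 CPM in Dp1Tyb, with every Dp1Tyb mouse inside the WT range. The log2 fold change was −0.07 ± 0.12 SE (edgeR, adjusted p = 0.834) and turned positive, at 0.04, without WT replicate 4, the highest WT mouse. Its interval, 0.797 to 1.14 on the linear scale, was wider than those of *Bcan* and *Ncan*.

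*Hapln4*, which encodes a brain link protein, ranged from 118 to 133 CPM in WT and from 117 to 142 CPM in Dp1Tyb (ENSMUSG00000007594, chromosome 8, positions 70083457 to 70090862). *Tnr* ranged from 251 to 283 CPM in WT and from 245 to 308 CPM in Dp1Tyb (ENSMUSG00000015829, chromosome 1, positions 159523769 to 159931729). In both genes the lowest and the highest of all 10 mice were Dp1Tyb. The log2 fold changes were 0.04 ± 0.052 SE and 0.02 ± 0.056 SE (edgeR, adjusted p = 0.751 and 0.884), and that of *Tnr* turned negative, at −0.03, without Dp1Tyb replicate 4, and was −0.0036 with the choroid plexus covariate. Of the 75-base windows in *Tnr* transcripts, 2.29% match the antisense gene *Gm38039* as the reverse complement, and 0 are shared in the same sense.

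Levels were compared between genes per exon length, as RPKM computed from the counts. In WT hippocampus *Bcan* was highest at 73.8 ± 4.18 RPKM, followed by *Hapln4* at 32.3 ± 1.39, *Ncan* at 30.1 ± 2.69 and *Tnr* at 20.7 ± 1.00 RPKM (SD, n = 5). These genes encode structural components of the matrix and not proteases. *Adamts4*, *Adamts1* and *Hapln1* followed at 5.72 ± 0.816, 5.05 ± 0.474 and 4.61 ± 0.373 RPKM, and *Vcan*, *Acan* and *Adamts5* came last at 1.74 ± 0.173, 0.859 ± 0.158 and 0.181 ± 0.0387 RPKM. In WT the ranges of *Hapln4* and *Ncan* overlapped, as did those of *Adamts4* and *Adamts1* and those of *Adamts1* and *Hapln1*, and the other neighbours in this order did not. In Dp1Tyb the range of *Adamts1*, 6.82 to 8.55 RPKM, lay above that of *Adamts4*, 4.79 to 6.35 RPKM.

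**Figure D3:**
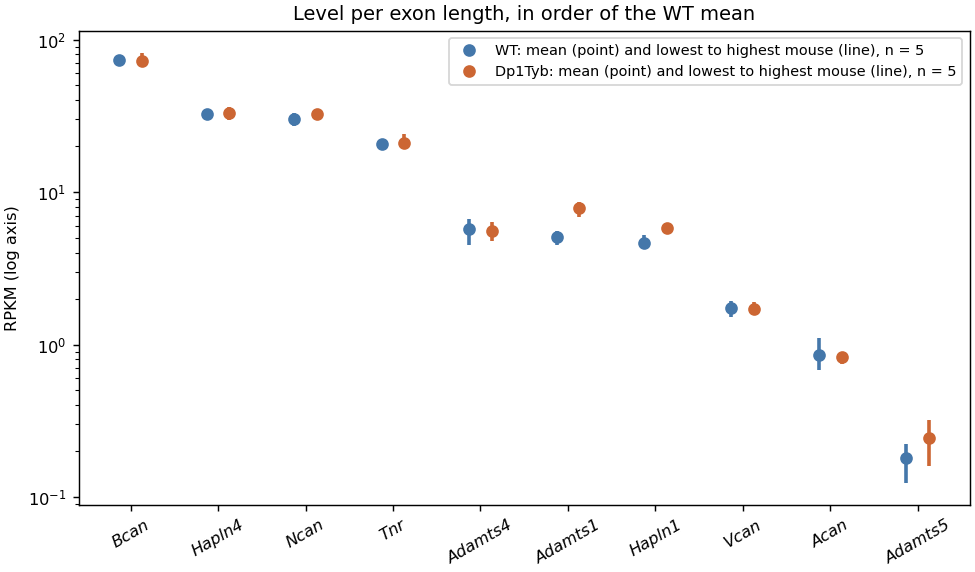
Level of each gene per exon length in RPKM on a log axis, ordered by the WT mean; points are means of 5 mice and lines run from the lowest to the highest mouse, with WT in blue and Dp1Tyb in orange. *Adamts4* and *Adamts1* overlap in WT and are separated in Dp1Tyb, and *Adamts5* is lowest in both genotypes.

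To ask whether these genes rise and fall together between mice of a genotype, the correlation of their deviations from the genotype mean was computed for all 45 pairs over the 10 mice. None passed with Pearson's r at an adjusted p under 0.05 (permutation test with 100000 resamples), and 3 had an unadjusted p under 0.05. The strongest pair was *Vcan* with *Tnr*, with r = 0.82 (permutation p = 0.00305, adjusted p = 0.0961) and Spearman's rho = 0.92 (permutation p = 0.00059, adjusted p = 0.0266), and r = 0.81 without the 2 mice farthest from the median of *Vcan*. By rank this pair passed, by r it did not. *Adamts4* and *Acan* moved in opposite directions, with r = −0.81 and rho = −0.79 (permutation p = 0.00427 and 0.00919, adjusted p = 0.0961 and 0.194), and r = −0.61 without 2 mice. The neighbours *Vcan* and *Hapln1* had r = 0.76 and rho = 0.77 (permutation p = 0.00925 and 0.0129, adjusted p = 0.139 and 0.194), and r = 0.63 without 2 mice. The duplicated neighbours *Adamts1* and *Adamts5* had r = 0.64 and rho = 0.38 (permutation p = 0.0523 and 0.279, adjusted p = 0.535 and 0.828), and r = 0.84 without 2 mice. The values of a pair come from the same libraries and share their scaling.

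**Figure D4:**
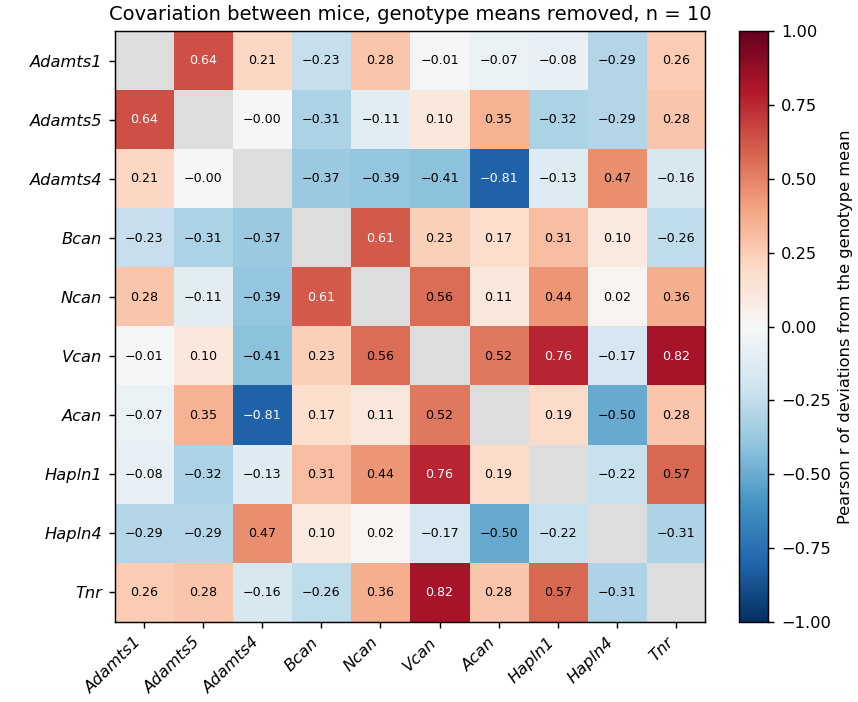
Pearson's r between the 10 genes of their deviations from the genotype mean of log2 CPM over 10 mice, from −1 in blue to 1 in red. The darkest cells are *Vcan* with *Tnr* at 0.82 and *Adamts4* with *Acan* at −0.81; no pair passed at an adjusted p under 0.05 with r.

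The matrix genes around the set were then read from the same test. In 9 lists of proteases, inhibitors, hyaluronan and chondroitin sulfate enzymes, other proteoglycans and receptors, 85 of 90 genes were tested. Of these 2, or 2.35%, were called by edgeR, 1 higher and 1 lower. The share was 1.11% of all genes tested and 0.718% of those outside the duplicated region. The lists were chosen with earlier results of these data known, so these shares are given as a description only. Over all genes tested, 14.4% had an unadjusted p under 0.05 and 3.68% had genotypes that did not overlap. *Cemip*, whose product takes part in breaking down hyaluronan, had 46.3, 49.2, 46.4, 49.9 and 42.6 CPM in the WT mice and 38.9, 37.1, 35.8, 40.0 and 38.3 CPM in the Dp1Tyb mice. All Dp1Tyb mice lay below all WT mice, and *Cemip* fell by 0.30 ± 0.051 SE on the log2 scale (edgeR, adjusted p = 0.00967; up to 0.0384 over the alternatives). Over the genome 0.238% of tested genes were called lower. The other 7 tested genes of hyaluronan synthesis and turnover did not pass, among them *Hyal1*, a lysosomal hyaluronidase, at −0.19 ± 0.11 SE (adjusted p = 0.431).

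*Spock1*, which encodes the proteoglycan testican-1, had 223, 215, 226, 229 and 230 CPM in the WT mice and 255, 260, 254, 256 and 268 CPM in the Dp1Tyb mice. Its genotypes did not overlap, and it rose by 0.21 ± 0.032 SE on the log2 scale (edgeR, adjusted p = 0.00462). Of all tested genes, duplicated ones included, 0.87% were called higher. Outside the duplicated region, where *Spock1* lies, 0.718% were called in either direction. The *Spock1* call was lost without the 3 libraries lowest in *Ttr*, with a similar difference of 0.20 (edgeR, adjusted p = 0.0736). The other 7 proteoglycans of that list did not pass. *Dcn*, the decorin gene, was at 0.31 ± 0.21 SE on the log2 scale (edgeR, adjusted p = 0.523).

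None of the 15 tested other Adamts proteases was called by edgeR, 2 had an unadjusted p under 0.05, both lower, and DESeq2 called 1, *Adamts10*. *Adamts17*, at −0.29 ± 0.092 SE, and *Adamts13*, which cuts von Willebrand factor, at 0.39 ± 0.32 SE, had the largest differences (edgeR, adjusted p = 0.18 and 0.604). The list of 6 Adamts-like genes, papilin included, gave no call, with 1 unadjusted p under 0.05, for *Papln* at 0.44 ± 0.17 SE (edgeR, adjusted p = 0.262), and DESeq2 called 0. *Adamtsl4* was at 0.16 ± 0.14 SE (adjusted p = 0.617). The 8 inhibitors and activators gave no call, with 2 at an unadjusted p under 0.05, both lower, and DESeq2 called 0. One of these was *Furin*, a convertase that removes the propeptide of Adamts proteases, at −0.21 ± 0.075 SE (edgeR, adjusted p = 0.242). Of the inhibitors, *Timp1* was at −0.47 ± 0.34 SE (adjusted p = 0.549).

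Among the 20 tested genes of chondroitin sulfate synthesis none was called by edgeR or DESeq2, and the median log2 fold change was −0.017. An unadjusted p under 0.05, which 14.4% of all tested genes had, was found for 1 in the higher and 5 in the lower direction. The largest differences were in *Chst14*, a dermatan sulfotransferase, at −0.50 ± 0.17 SE, and in the chondroitin synthase *Chsy1*, at −0.30 ± 0.11 SE (edgeR, adjusted p = 0.204 and 0.24). The values of *Chsy1* did not overlap between the genotypes, a separation that 3.68% of all tested genes showed. No call was made by edgeR or DESeq2 among the 7 tested matrix metalloproteinases, with 1 unadjusted p under 0.05, nor among the 4 tested other link proteins and tenascins, with 0. All 11 of these genes were below 0, among them *Mmp15* at −0.21 ± 0.17 SE, *Mmp2*, a gelatinase, at −0.15 ± 0.18 SE and *Tnc*, the tenascin-C gene, at −0.25 ± 0.20 SE (edgeR, adjusted p = 0.579, 0.727 and 0.608). In the 9 receptors and net ligands there was no call by either tool, with 2 at an unadjusted p under 0.05. The largest difference there was in *Otx2*, a homeodomain protein taken up by net-bearing neurons, at −0.94 ± 0.77 SE (edgeR, adjusted p = 0.601), and *Sema3a*, a guidance protein held in the nets, was at −0.32 ± 0.21 SE (adjusted p = 0.521). *Otx2* is also transcribed in choroid plexus, whose markers differed by −1.20 to −0.75, and their part in its value was not tested.

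The cell types that make or carry this matrix were followed by their markers. Of 55 tested markers in 9 lists, 1, or 1.82%, was called by edgeR and 4 by DESeq2, where 1.11% and 3.2% of all genes tested were called. For edgeR the share outside the duplicated region was 0.718%. The marker lists, too, were chosen with earlier results of these data known. The called gene was the astrocyte filament gene *Gfap*, at 371, 361, 333, 375 and 367 CPM in the WT mice and 404, 442, 408, 458 and 454 CPM in the Dp1Tyb mice. Its genotypes did not overlap, and it rose by 0.26 ± 0.047 SE on the log2 scale (edgeR, adjusted p = 0.0167). The call was lost without Dp1Tyb replicate 2 and without the 3 libraries lowest in *Ttr*, with log2 differences of 0.25 and 0.26 (edgeR, adjusted p = 0.0587 and 0.0854). The astrocyte water channel gene *Aqp4* was at 0.22 ± 0.055 SE (edgeR, adjusted p = 0.0721). Of the 6 astrocyte markers 4 were above 0 in log2 fold change and 2 below, with a median of 0.064. The summed level of the 6 astrocyte markers was 1908 to 2245 CPM in WT and 2128 to 2283 CPM in Dp1Tyb, overlapping; its part in the difference of *Hapln1* was not tested.

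None of the 7 parvalbumin interneuron markers was called by edgeR, and 4 were above 0 in log2 fold change and 3 below. *Pvalb* itself was at −0.16 ± 0.11 SE (edgeR, adjusted p = 0.525). An unadjusted p under 0.05, which 14.4% of all tested genes had, was found for 4 of the 7 markers, 3 of them higher and 1 lower. The lower one was *Syt2*, a synaptic vesicle protein of these cells, at −0.27 ± 0.11 SE, and *Tac1* was at 0.26 ± 0.11 SE (edgeR, adjusted p = 0.288 and 0.303). DESeq2 called 1, *Gad1*, which was at 0.21 ± 0.052 SE in edgeR (adjusted p = 0.0765). Its values did not overlap between the genotypes, a separation that 3.68% of all tested genes showed. The summed level was 730 to 844 CPM in WT and 790 to 928 CPM in Dp1Tyb. The 5 markers of CA2 gave no call by edgeR or DESeq2, with 1 unadjusted p under 0.05, and a median log2 fold change of 0.17. *Map3k15* was at −0.32 ± 0.22 SE and *Amigo2* at 0.17 ± 0.086 SE (edgeR, adjusted p = 0.527 and 0.384). The summed level of the CA2 markers was 208 to 236 CPM in WT and 221 to 253 CPM in Dp1Tyb. The sums of both lists overlapped between the genotypes.

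The 5 tested oligodendrocyte precursor markers gave no call and 0 at an unadjusted p under 0.05, and DESeq2 called 0. Their sum was 159 to 174 CPM in WT and 157 to 164 CPM in Dp1Tyb, and the largest differences were those of *Neu4*, at 0.16 ± 0.081 SE, and *C1ql1*, at −0.11 ± 0.10 SE (edgeR, adjusted p = 0.409 and 0.63). Vascular cells, which also transcribe Adamts genes, were followed by 7 endothelial and 6 mural markers. Endothelial markers summed to 224 to 243 CPM in WT and 217 to 226 CPM in Dp1Tyb, with no call by edgeR or DESeq2 and 3 at an unadjusted p under 0.05, all lower, the largest differences being those of the tight junction gene *Cldn5*, at −0.20 ± 0.077 SE, and the receptor gene *Flt1*, at −0.13 ± 0.046 SE (edgeR, adjusted p = 0.275 and 0.244). Mural markers summed to 197 to 238 and 212 to 237 CPM, with no call by edgeR and 1 by DESeq2, *Rgs5*. Of the 6 mural markers 2 were above 0 in log2 fold change and 4 below. An unadjusted p under 0.05 was found for 2, 1 higher and 1 lower. The higher one was *Rgs5*, at 0.24 ± 0.068 SE in edgeR (adjusted p = 0.132). The lower one was *Pdgfrb*, at −0.17 ± 0.074 SE (edgeR, adjusted p = 0.318). *Kcnj8*, a potassium channel gene of pericytes, was at −0.20 ± 0.13 SE (adjusted p = 0.494). The sums of both vascular lists overlapped between the genotypes, and their part in the difference of *Adamts1* was not tested.

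Fibroblast markers summed to 69.7 to 309 and 80.4 to 230 CPM, with 0 called by edgeR, 0 at an unadjusted p under 0.05 and 0 called by DESeq2. *Igf2* was at −0.67 ± 0.47 SE and *Col1a2* at −0.32 ± 0.24 SE (edgeR, adjusted p = 0.538 and 0.57). Thalamus markers summed to 79.3 to 88.4 and 79.1 to 84.8 CPM, with 0 called by edgeR, 1 at an unadjusted p under 0.05 and 0 called by DESeq2. *Lef1* was at −0.32 ± 0.097 SE and *Tnnt1* at −0.23 ± 0.19 SE (edgeR, adjusted p = 0.161 and 0.611). All 8 choroid plexus markers were below 0 in log2 fold change, with a median of −0.95, 0 called by either tool and 0 at an unadjusted p under 0.05, the largest differences being those of *Slc4a5*, at −1.20 ± 0.89 SE, and *Cldn2*, at −0.998 ± 0.80 SE (edgeR, adjusted p = 0.558 and 0.591).

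**Figure D5:**
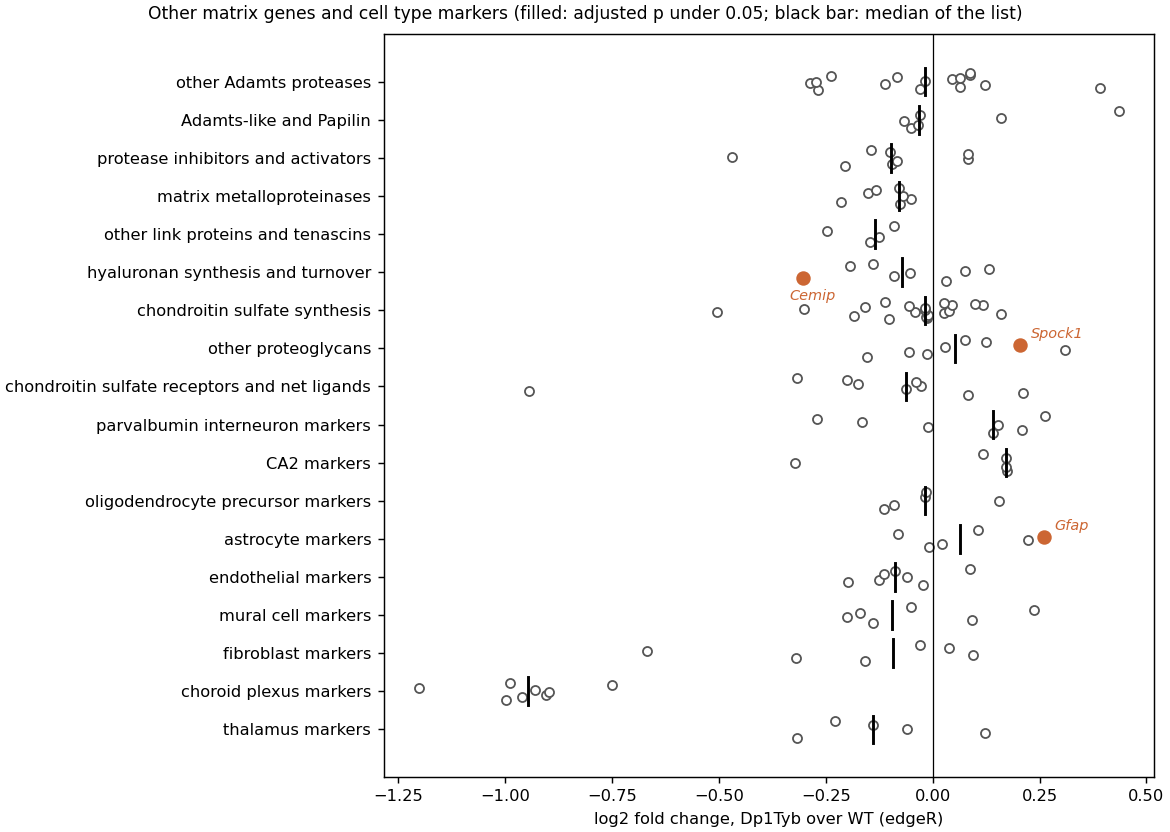
Log2 fold change in Dp1Tyb over WT of each tested gene in the 9 matrix lists and the 9 marker lists (edgeR, n = 5 per genotype); each point is a gene, filled where the adjusted p is under 0.05, and the black bar is the median of the list. The filled genes are *Cemip*, *Spock1* and *Gfap*, and the choroid plexus markers lie between −1.20 and −0.75 with none filled.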

How the data were processed

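Reads of stranded poly(A) libraries had been trimmed by the authors with TrimGalore, mapped to GRCm38 with TopHat, and counted per gene with htseq-count, reads with several alignments being discarded. The deposited values are raw counts, not normalised. How strand was handled in counting, and which annotation release was used, are not given in the sources used here. The other deposited tables, the authors' scaled counts and their own DESeq2 comparison (mean levels, fold changes and p-values), were not used. Gene symbols, positions and exon lengths came from GENCODE M21 (GRCm38), in which 42548 of 43629 genes were found by Ensembl ID. Promoters came from RefSeq (GRCm38.p6), which held 7 of the 10 genes; 1 is printed.

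Counts were tested with edgeR 4.0.16 (quasi-likelihood F-test, TMM, filterByExpr, genotype as the only term, Benjamini-Hochberg adjustment over all 17237 genes), which was checked on simulated counts. Calls have an adjusted p under 0.05. CPM used TMM factors, and within-library ratios and correlations used log2 CPM with a prior count of 2. Log2 fold changes are Dp1Tyb over WT, intervals are 95%, and RPKM is CPM per kilobase of exon. Each mouse is a replicate; with total counts of 18227684 to 43692270 the members had 32 to 14522 counts. The labels give no batch. The genes and lists were chosen with earlier results of these data known. Genes named from a list are those called and the 2 with the largest absolute log2 fold change. *Adamts10*, *Gad1*, *Hapln3*, *Pdgfrb*, *Pvalb* and *Ttr* are named beside them after their values were seen. The neighbours of *Adamts1* and *Adamts5* and the genes most alike each member (3 searched for each) are named too. 1 result on overlapping exons is not reported here. Alternatives were DESeq2 1.42.0, limma-voom (limma 3.58.1), other scaling, no filter, a replicate block, a choroid plexus covariate and leaving out each library; leaving out the 3 libraries lowest in *Ttr* was added after the data were seen.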

Additional observations from a re-analysis of the deposited data

Results flagged for a closer look

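Dp1Tyb replicate 1 stood apart in *Bcan*, at 332.9 CPM against 277.6 to 291.0 CPM in the other Dp1Tyb mice. The distance to the nearest of them, 291.0 CPM, made up 0.756 of the whole spread. It was 1 of 26 groups of 5 mice examined in this way, of which chance would single out about 1.3. The same library had the highest total count, 43692270, and the lowest *Ttr* level, 12.9 CPM; their part in this value was not tested.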

How the results depend on the processing

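The number of members called was 2 in all 18 alternatives. The number of genes called over the genome was 191, and it was 507 with DESeq2, 108 without the 3 libraries lowest in *Ttr*, and 105 to 218 with single libraries left out (105 without WT replicate 4 or Dp1Tyb replicate 2, 111 without Dp1Tyb replicate 3, 127 without WT replicate 5). The genes called in the other lists, 3, became 7 with DESeq2 and 1 without the 3 libraries lowest in *Ttr*. Small differences changed sign: *Adamts4* was 0.035 with the choroid plexus covariate, 0.10 without the 3 libraries and −0.12 to 0.022 with single libraries left out, *Tnr* was −0.0036 with the covariate and −0.031 to 0.057 with single libraries left out, and *Vcan* and *Acan* ranged from −0.061 to 0.018 and from −0.14 to 0.044. The causes were not tested. *Adamts1* ranged from 0.60 to 0.70 over all alternatives, *Hapln1* from 0.30 to 0.39 and *Adamts5* from 0.29 to 0.59. By Pearson's r, no pair of members passed with DESeq2 size factors or with TMM.

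Replicate numbers are shared by the genotypes, and the labels do not say whether they pair the mice. The deviations of same-numbered mice correlated at −0.069 to 0.28, with 3 of 5 pairs over 0.1. Only 1 of 10 mice correlated best with its own number. So few pairs cannot decide whether the mice were paired, and the main fits treated them as unpaired. The SE of the *Adamts1* log2 fold change was 0.082 in the main fit and 0.043 with a replicate block. With the replicate block 315 genes over the genome and 6 list genes were called. The difference of 0.67 in the ratio of *Adamts1* to *Adamts4* then had an adjusted p of 0.188 (exact sign-flip permutation test), in a paired design whose smallest unadjusted p is 0.0625. *Adamts5* had the fewest counts of the 10 genes, 32 to 90 per library.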

Other observations

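Among 17236 other tested genes, those whose deviations from the genotype mean followed a member most closely over the 10 mice were *Kdm5c*, *Alms1* and *Sox1ot* for *Adamts1* (Pearson's r of 0.98, 0.96 and 0.95), *9130213A22Rik*, *Stk36* and *Fcgr1* for *Adamts5* (0.96, 0.92 and 0.92) and *Hectd2*, *Mrtfb* and *Sema5a* for *Hapln1* (0.97, 0.95 and 0.94). For the other members, the closest genes were *Pet100* for *Adamts4* (0.95), *Sufu* for *Bcan* (0.95), *Dlat* for *Ncan* (0.95), *Gm11870* for *Vcan* (0.97), *D030046N08Rik* for *Acan* (0.93), *Plk1* for *Hapln4* (0.97) and *Akap14* for *Tnr* (0.95). All these are the highest values of a search over all genes in the same libraries and are given as a description, with no test.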
